A study of Ovis aries and Mus musculus with 20 samples.

Results

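The 10 genes described here encode the enzymes, regulators and droplet proteins with which a fat cell releases stored triacylglycerol. They were taken by name: the lipases Pnpla2, Lipe and Mgll, the regulators Abhd5 and G0s2, the droplet coat and fusion proteins Plin1, Plin2, Plin4 and Cidec, and the glycerol channel Aqp7. They are 10 of the 20616 protein-coding genes of mouse autosomes with a value in the map. The chromatin around them was measured by in situ Hi-C, which ligates DNA fragments that lie near each other in the nucleus, in the fat pad of the groin, a subcutaneous depot labelled iWAT for inguinal white adipose tissue, of 32-week-old female Kunming mice. There were 2 libraries, each from a pool of 10 mice, with no treatment and no second mouse group. The rest of the series, 18 libraries of sheep fat, was not used here.

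In adipocytes, triacylglycerol is stored in 1 large droplet whose surface is covered by perilipins. Fasting and noradrenaline act through cAMP and protein kinase A, which phosphorylates perilipin 1 and hormone-sensitive lipase, and insulin opposes them. The fatty acids are then removed in turn by separate lipases, and the glycerol leaves through an aquaglyceroporin. In the nucleus, gene-rich and transcribed chromatin tends to contact other chromatin of its kind, the A compartment, and silent chromatin tends to contact the B compartment. Topologically associating domains (TADs) are stretches within which contacts are more frequent than across their boundaries.

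The start of each of the 10 genes lay in the A compartment in both pools, and the levels within A differed widely. The A-B index is a signed score for each 20-kb bin, above 0 in A and below 0 in B. Its mean over the 2 pools ranged from 9.49 at Pnpla2, the lipase of the first step, to 3.05 at both Mgll, the lipase of the last step, and Abhd5, the protein that activates Pnpla2. The median of the 10 genes was 5.21, beside 3.26 over all protein-coding genes, and their median percentile among those genes was 83.4. A start in A in both pools was found for 75.6% of all protein-coding genes, so the 10 of 10 seen here is a description with no test. All 10 starts were also above the median of the genes of their own chromosome, as were 49.9% of all genes.

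The index is relative to the chromosome and the library and measures no RNA. Each value is an average over all nuclei recovered from a pool, whatever their cell type, so a change in the share of a cell type and a change within a cell type cannot be told apart. With 1 group of 2 pools no test was possible, and the spread given is that between the pools (SD, n = 2). It is the spread of pools, not of single mice. Over the 119868 bins used the pools correlated with an r of 0.988 and had the same sign in 96.4% of bins. The median absolute difference between the pools was 0.449 over bins and 0.499 at gene starts, and 95% of bins differed by less than 1.32. No read counts were used, so the depth behind each value was not examined here.

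The sequences before the starts of the genes with the highest and the lowest index were read from the GRCm39 genome, together with Plin1, which was added after its values were seen because its start fell in a TAD boundary. Each is 100 bases long, is written 5′ to 3′ on the strand of the gene, and has each CG dinucleotide in capitals. Windows were placed before the canonical start of Ensembl and moved upstream where they overlapped an annotated untranslated region, by 659 bases for Pnpla2 and 102 bases for Mgll. They are chr7:141034304-141034403 (plus strand), chr7:79382719-79382818 (minus strand), chr6:88701192-88701291 (plus strand) and chr9:122180521-122180620 (plus strand).
Pnpla2: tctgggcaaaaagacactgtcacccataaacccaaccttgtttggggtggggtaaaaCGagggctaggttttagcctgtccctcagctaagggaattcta
Plin1: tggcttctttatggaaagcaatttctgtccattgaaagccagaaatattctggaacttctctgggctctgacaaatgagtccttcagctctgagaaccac
Mgll: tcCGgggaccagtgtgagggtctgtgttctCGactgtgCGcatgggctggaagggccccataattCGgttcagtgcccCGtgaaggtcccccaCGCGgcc
Abhd5: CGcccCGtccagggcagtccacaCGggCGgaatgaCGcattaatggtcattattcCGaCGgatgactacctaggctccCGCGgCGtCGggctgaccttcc

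These windows held 1, 0, 7 and 11 CG dinucleotides, in the order printed. In the 100 bases directly before the canonical start, which are not printed where the window was moved, Pnpla2 had 9 and Mgll 15. A CpG-rich start was called here from the 500 bases around the canonical start, with a ratio of observed to expected CG of at least 0.6 and a GC content of at least 50%. Pnpla2 at 0.615, Mgll at 0.972 and Abhd5 at 0.949 met it, which is 3 of 10 beside 49.8% of all protein-coding genes. The other 7 genes had ratios between 0.0676 at Plin1 and 0.440 at Plin2. For Mgll the canonical start, at chr6:88701394, was not in the bin of the outermost start at chr6:88652108, from which its index was taken. The bin of its canonical start had a mean index of 3.19, beside 3.05 at the outermost start. With either bin for Mgll, the genes with CpG-rich starts were at both ends of the order by A-B index. CpG content around the canonical start did not rank the genes as the index did.

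Short motifs were searched on both strands of the 250 bases before the canonical start. The letters AGGTCA, a half-site of nuclear receptors such as PPARG, were present at Abhd5, Plin2 and Aqp7, and in 13.2% of all protein-coding genes. At Plin2 and Abhd5 they lay on the opposite strand, where they read TGACCT. These letters are in capitals in the Plin2 window chr4:86588460-86588559 (minus strand) shown next, and stand near the end of the Abhd5 line printed above.
Plin2: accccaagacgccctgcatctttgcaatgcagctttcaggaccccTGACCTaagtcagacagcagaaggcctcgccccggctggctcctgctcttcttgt

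The full pair of 2 half-sites with 1 base between them was in none of the 10 windows and in 0.0388% of all. CACGTG, the E-box bound by MYC and related factors, was found at Mgll alone and in 6.32% of all genes. CCAAT was found at Cidec alone (36.1% of all genes), and neither TATAAA (12%) nor TTGCNNCAA, the pattern of C/EBP factors (1.91%), was found at any of the 10. These counts say only which letters stand in these windows. Which start the fat cells used was not measured.

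Among the lipases listed here, the index fell in the order in which the enzymes act, a description of a few genes with no test. Pnpla2 (ENSMUSG00000025509.17, chr7:141034404-141040656, plus strand) encodes adipose triglyceride lipase, which removes the first fatty acid from triacylglycerol. Its start bin had an index of 9.83 in pool 1 and 9.15 in pool 2, a mean of 9.49 ± 0.484. It stood at the 99.9th percentile of all genes and at the 98.7th of chromosome 7. By the mean of the pools no bin within 500 kb of it was higher, although in pool 1 a bin 220 kb upstream reached 10.3.

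Lipe (ENSMUSG00000003123.17, chr7:25078880-25098135, minus strand) encodes hormone-sensitive lipase, which acts mainly on diacylglycerol. Its values were 7.77 and 8.14, a mean of 7.96 ± 0.262. It was the only one of the 10 genes with the higher value in pool 2. Both pools of Lipe lay below both pools of Pnpla2. Its percentile among all genes was 98.4, but only 88.2 on its own chromosome, since the genes of chromosome 7 had a median of 4.62, beside 2.32 to 3.78 on the other 5 chromosomes that hold members.

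Mgll (ENSMUSG00000033174.19, chr6:88652108-88805342, plus strand) encodes monoglyceride lipase, which splits the last fatty acid from glycerol and also breaks down an endocannabinoid. Its start had 3.16 and 2.94, a mean of 3.05 ± 0.155, which was the smallest difference between pools among the 10 genes. It was near the middle of all genes, at the 47.3rd percentile, and at the 51.4th of chromosome 6. Mgll is the longest of the 10 genes, at 153 kb, and its 9 bins ranged from 2.65 to 4.29. Both pools of Mgll lay well below both pools of the other lipases.

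The regulators of Pnpla2 also lay in the lower part of the order. Abhd5 (ENSMUSG00000032540.18, chr9:122180621-122222936, plus strand) encodes the co-activator of Pnpla2, which perilipin 1 holds at the droplet in the resting state. Its start had 3.25 and 2.84, a mean of 3.05 ± 0.291, at the 47.2nd percentile of all genes and the 59.1st of chromosome 9. Its values overlapped those of Mgll, so these genes could not be ordered. The 3 bins of its body ran from 3.23 down to 1.98.

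G0s2 (ENSMUSG00000009633.5, chr1:192949563-192956177, minus strand) encodes the inhibitor of Pnpla2. Its start had 5.05 in pool 1 and 3.65 in pool 2, a mean of 4.35 ± 0.987, at the 69.3rd percentile. The difference of 1.40 between pools was larger than that of 95% of bins. Both pools of G0s2 were nevertheless above both pools of Abhd5 and Mgll, so the inhibitor had a higher index than the co-activator in each pool.

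By the index itself, the proteins of the droplet surface filled the middle of the order. By percentile on their own chromosomes the order differed. Cidec (89.9) and Plin4 (89.5) then stood above Lipe (88.2) and Plin1 (74.2), and Plin2 (69.6) stood below G0s2 (72.0). Plin1 (ENSMUSG00000030546.16, chr7:79369966-79382718, minus strand) encodes the main perilipin of adipocytes, the gatekeeper of the lipases. It had 7.05 and 6.57, a mean of 6.81 ± 0.340. Its rank depended on the scale, with the 95th percentile among all genes and the 74.2nd on chromosome 7. It was below both pools of Aqp7 and above both pools of Cidec.

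Cidec (ENSMUSG00000030278.13, chr6:113400691-113412721, minus strand) encodes the protein that moves lipid between touching droplets and keeps the single large droplet of white fat. It had 5.72 and 4.83, a mean of 5.27 ± 0.630, at the 84.2nd percentile. Plin4 (ENSMUSG00000002831.17, chr17:56406617-56416931, minus strand), a perilipin found chiefly in adipocytes, had 5.98 and 4.31, a mean of 5.15 ± 1.18. Its difference of 1.67 between pools was the largest of the 10 genes. Plin2 (ENSMUSG00000028494.14, chr4:86565912-86588459, minus strand), the perilipin of most other cell types, had 5.14 and 4.35, a mean of 4.75 ± 0.554, at the 76.6th percentile. The pools of Cidec and Plin4, of Plin4 and Plin2, and of Plin2 and G0s2 overlapped, so the 4 genes in the middle had no resolved order between neighbours.

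Aqp7 (ENSMUSG00000028427.15, chr4:41032835-41048211, minus strand) encodes the channel through which glycerol leaves the adipocyte. Its start had 8.47 and 7.31, a mean of 7.89 ± 0.817, at the 98.3rd percentile of all genes and the 98.1st of chromosome 4. Its pools overlapped those of Lipe, with a difference of the means of 0.0658. Aqp7 and Pnpla2 were the members that ranked highest on their own chromosomes.

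**Figure D1:**
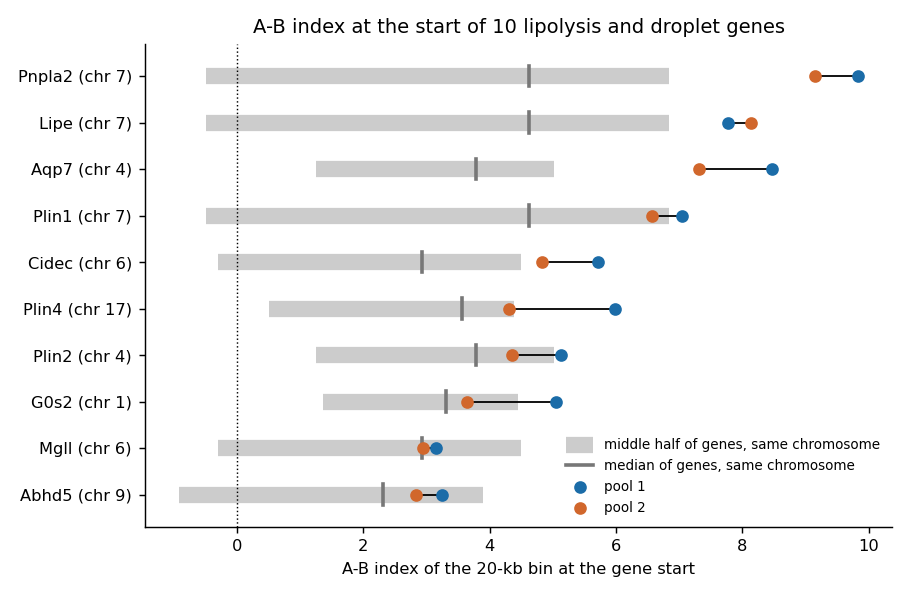
Dots give the A-B index of the 20-kb bin at each gene start in pool 1 and pool 2, joined by a line, with the gray bar covering the middle 50% of genes of the same chromosome and the tick their median. Pnpla2, Lipe, Aqp7 and Cidec have both pools above the bar of their chromosome, and Mgll, at 3.16 and 2.94, sits at its median.

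Index and base composition moved together over the genome, with an r of 0.679 between the index and the GC content of the start bin over all genes, which are not independent. The start bins of the 10 genes had a median GC content of 47.2%, beside 45.0% for all genes. The members with a high index were mostly in GC-rich bins: Pnpla2 at 52.2%, Lipe at 51.3% and Aqp7 at 49.2%. Abhd5 at 42.5% and Mgll at 43.2% had the lowest GC content as well as the lowest index. In 9 of the 10 genes the percentile by index was above the percentile by GC, as in 49.8% of all genes. The exception was Plin4, at the 97.9th percentile by GC (54.1%) and the 82.5th by index. The widest gap the other way was at Plin1, at the 63.9th percentile by GC and the 95th by index. The part of base composition in the index was not tested.

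**Figure D2:**
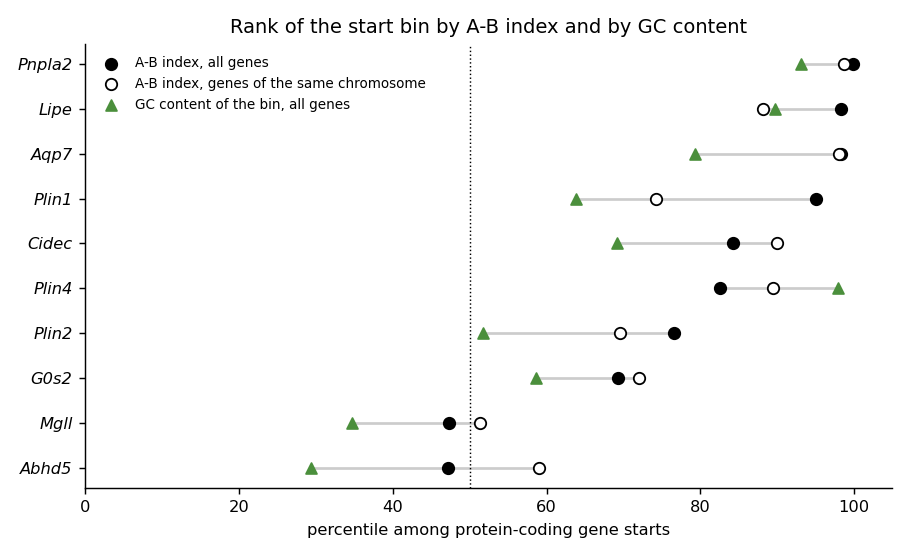
Percentile of each start bin among protein-coding genes by A-B index over all genes (filled), by A-B index within the chromosome (open) and by GC content (triangles). Plin4 is the only gene whose triangle (97.9) lies to the right of its filled dot (82.5), and Mgll and Abhd5 lie near 50 by index.

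The number of protein-coding starts within 500 kb varied from 6 at Plin2 to 41 at Pnpla2, with a median of 18.5 beside 16 for all genes. Pnpla2, with 41, Lipe and Plin4, with 33 each, and Cidec, with 28, lay in gene-dense neighbourhoods. Mgll and Abhd5, with 10 each, and G0s2, with 9, lay in sparse ones. Gene number within 500 kb and the index were only weakly related over all genes (r of 0.159).

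Several starts shared their 20-kb bin with other genes, so that the map could not separate them. The bin of Pnpla2 also held the starts of Rplp2, a ribosomal protein gene, 7.13 kb away, and of Pidd1, which acts in p53-driven cell death. That of Plin1 held Pex11a, of peroxisome division, and Wdr93. That of Cidec held Jagn1, an endoplasmic reticulum protein, 6.81 kb away, and that of G0s2 held Hsd11b1, which regenerates active glucocorticoid, 9.69 kb away. The other 6 starts were alone in their bins.

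Where the nearest gene lay in another bin, its index was mostly close to that of the member. Cracr2b, 6.43 kb beyond Pnpla2, had a mean of 9.09. Cnfn and Cxcl17, which flank Lipe, had 7.71 and 7.21, and Nfx1 and Aqp3, which flank Aqp7, had 8.19 and 7.44. Hdgfl2 and Plin5, around Plin4, had 5.68 and 5.57, both above Plin4 itself by the mean of the pools. In pool 1 Plin4 (5.98) was above both Hdgfl2 (5.72) and Plin5 (5.79). Rpusd3 next to Cidec had 4.93, and Kif7, a kinesin of the primary cilium, had 6.50 next to Plin1. The widest steps were at the sparse loci. Camk1g, 96.5 kb upstream of G0s2, had 2.31 and 3.15, below both pools of G0s2. Topaz1, 396 kb downstream of Abhd5, had a mean of 1.43, while Abtb1, 167 kb from the start of Mgll, had 4.29, above it.

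Over 500 kb to each side, 51 bins in all, the surroundings of the members ranged from stretches wholly in A to an island of A. All 51 bins were in A in both pools at Pnpla2, Lipe, Plin1, Cidec and Mgll, which is 5 of 10 genes beside 38.1% of all genes. Aqp7 had 49 bins in A, Abhd5 44, G0s2 43, Plin4 37 and Plin2 28. The median share of A bins was 98.0% for the 10 genes and 84.3% for all genes.

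Plin2 had the profile of an island. Its start was the highest of its 51 bins, at 4.75, the index fell to -2.75 at 480 kb upstream, and the run of adjoining A bins around it was 520 kb long, a length at the 14.0th percentile of genes in A. Plin4 stood at an edge: from 6.38 at 500 kb upstream and 5.15 at the start, the mean index went to -4.15 at 500 kb downstream. Aqp7 stood on a plateau that ended abruptly, with 8.51 at 300 kb upstream and -1.18 at 500 kb downstream. Abhd5 was also near an edge, and its lowest bin was -0.279 at 340 kb downstream. G0s2 reached 4.71 at 80 kb downstream and -1.48 at 500 kb upstream.

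The remaining profiles stayed in A throughout. Pnpla2 had its lowest bin, 3.62, at 360 kb downstream. Lipe peaked at 9.19 at 140 kb downstream and was lowest, 2.72, at 500 kb upstream. Plin1 varied little, between 4.81 and 7.44. Cidec ranged from 1.26 to 6.12 and Mgll from 1.17 to 4.42. Of the 45 pairs of profiles, read in the direction of transcription, Plin4 and Pnpla2 were most alike over the 51 bins (r of 0.927), and Abhd5 and Cidec least (r of -0.469). Adjoining bins are not independent, so these r values describe the shape of the profiles and have no test.

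**Figure D3:**
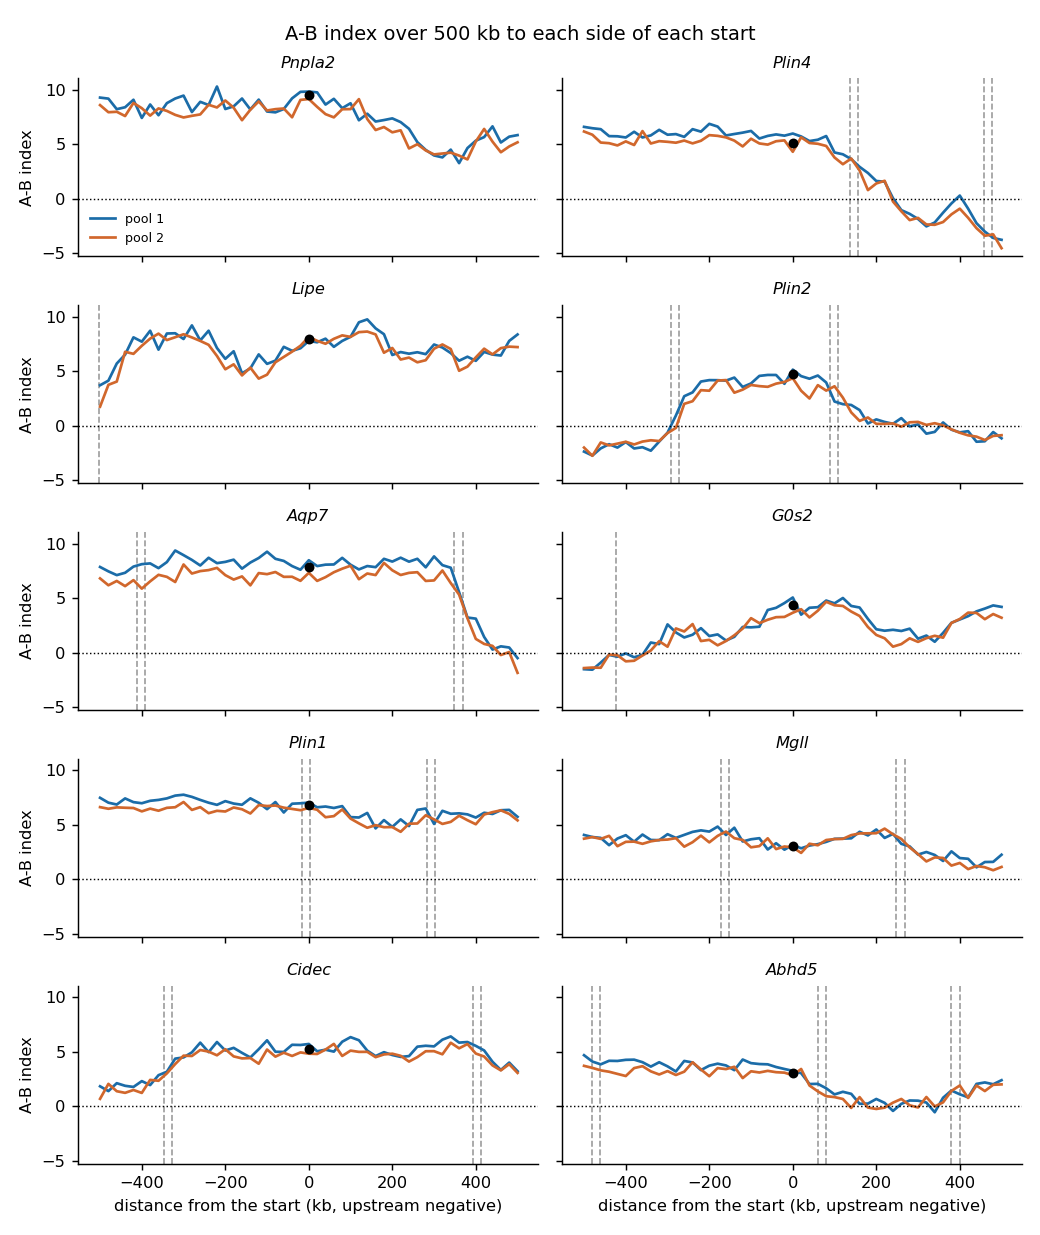
A-B index of pool 1 and pool 2 in 51 bins around each start, against distance in kb with upstream negative, with the start as a black dot and TAD edges as dashed lines. Plin4, Aqp7, Plin2 and G0s2 run from A into B (to -4.15, -1.18, -2.75 and -1.48), and Abhd5 reaches -0.279. Pnpla2, Lipe, Plin1, Cidec and Mgll stay above 0.

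The difference of a start from its surroundings was measured as the mean of the 60 kb around it minus that of the next 200 kb on each side. It was positive in both pools for 8 of the 10 genes and for 57.5% of all genes. Its median was 0.807, beside 0.233 for all genes. The largest differences were at Pnpla2 (1.32), Plin2 (1.23), G0s2 (1.15) and Abhd5 (1.02). The measure averages both sides, so an edge can also give a positive value. At Abhd5, 25 of the 51 bins were above the start, with 3.24 at 200 kb upstream and 0.215 at 200 kb downstream. The exceptions were Aqp7, at -0.344 on its plateau, and Mgll, at -0.943. Mgll thus lay in a dip, lower than its surroundings in each pool (-0.95 and -0.93), at the 6.56th percentile of all genes.

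Every bin of the transcribed body was in A in both pools for all 10 genes, as for 72% of all genes. The gene body gave 9.80 and 8.79 for Pnpla2, which spans 2 bins, and 7.71 and 7.96 for Lipe. For Mgll it gave 3.49 and 3.46, above the value at the start, and for Abhd5 2.78 and 2.72, below it. By body, both pools of Mgll were therefore above both pools of Abhd5, which the start bins did not separate.

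TADs had been called once, on the map of both pools merged, so their positions have no replicate. The start lay inside a called TAD for 9 of the 10 genes, beside 93.9% of all genes. The exception was Plin1. Its start fell in the boundary bin chr7:79380001-79400000, between a TAD of 280 kb with 4 genes (Polg, Rhcg, Ticrr and Kif7) and a TAD of 560 kb with 14 genes. The mean index was 5.61 in the former and 6.82 in the latter. Plin1 was also the only member within 40 kb of a boundary, beside 19.6% of all genes, and the median distance to a boundary was 240 kb for the 10 genes and 142 kb for all.

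The TADs around the other 9 genes differed in size and gene content. Lipe lay in the largest, chr7:23620001-25600000, of 1980 kb and 77 genes, which also holds Cd79a of the B-cell receptor and reaches down to -2.03 in its lowest bin. Pnpla2 lay in one of 1420 kb and 68 genes (chr7:140380001-141800000), all of whose 71 bins were in A. By the mean of the pools, Pnpla2 and its bin partners had the highest index of that domain, in which the median gene had 8.14, but Phrf1 was higher in pool 1, at 10.3. Aqp7 shared a TAD of 740 kb and 15 genes (chr4:40700001-41440000) with Aqp3, the related channel of skin and kidney, 50.0 kb away. Plin4 shared one of 780 kb and 32 genes (chr17:56280001-57060000) with Plin5, 7.68 kb away, and Plin3.

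The TAD of Cidec (chr6:113020001-113740000) was 720 kb long with 28 genes, and that of G0s2 (chr1:192400001-193380000) 980 kb long with 11. Plin2 lay in 360 kb (chr4:86500001-86860000) with Haus6, Dennd4c, Rps6 and Acer2, at 4.16, 4.10, 4.15 and 3.69, so Plin2 had the highest index of its 5 genes. Haus6 is a subunit of the spindle complex augmin, Rps6 a ribosomal protein and Acer2 a ceramidase. Mgll lay in 400 kb (chr6:88500001-88900000) with Kbtbd12 (3.05), Abtb1 (4.29), Podxl2 (4.41), Mcm2, a subunit of the replicative helicase (4.23), and Tpra1 (4.23). With Kbtbd12 it had the lowest mean index of these 6 genes. Abhd5 lay in 520 kb (chr9:121720001-122240000) with Ackr2, Cyp8b1, Gask1a, Pomgnt2, Snrk and Ano10, which had 3.52 to 4.03, and by the mean of the pools it was the lowest of the 7. Its start was 59.4 kb from the end of that domain.

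**Figure D4:**
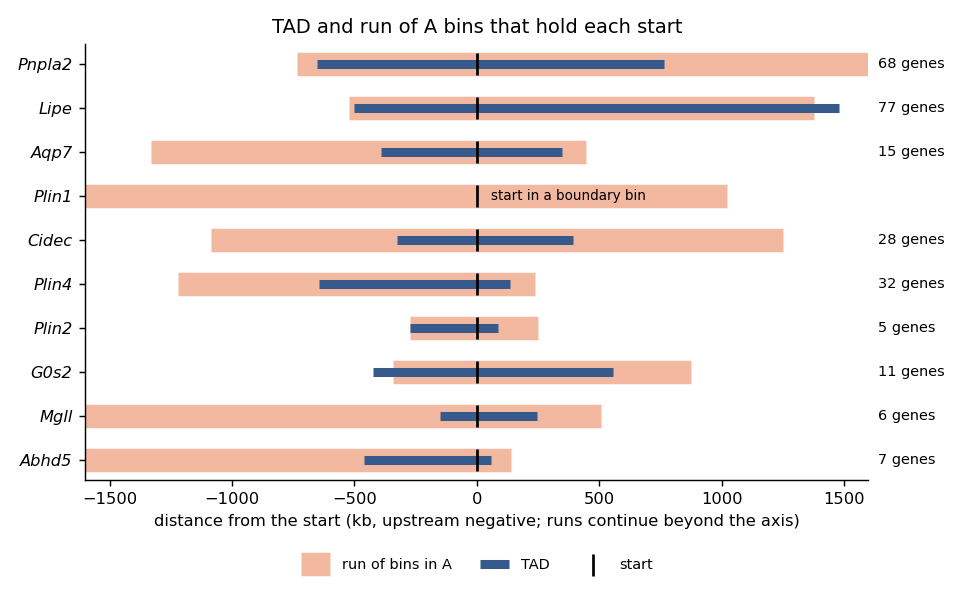
For each gene, the dark bar is the TAD that holds the start and the pale bar the run of adjoining bins in A in both pools, against distance in kb with upstream negative, and the number of genes in the TAD is at the right. Plin1 has no TAD, and the run around Plin2 (520 kb) is the shortest.

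Runs of adjoining A bins were 2120 kb long in the median of the 10 genes and 2600 kb for all genes with a start in A. The longest surrounded Mgll (6600 kb), Pnpla2 (4600 kb) and Plin1 (4560 kb). After Plin2 the shortest were those of G0s2 (1220 kb), Plin4 (1460 kb) and Aqp7 (1780 kb). The run of Lipe, at 1900 kb, stopped short of its TAD on the downstream side only. Mgll had the longest run and one of the lowest indices, while Pnpla2 had the next longest and the highest index.

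Pool 1 was higher than pool 2 at 9 of the 10 starts, as at 70.9% of all gene starts, where the median difference was 0.348. The median absolute difference at the 10 starts was 0.734, and 2 of them, Plin4 and G0s2, differed by more than 1.32, beside 6.80% of gene starts. When the 2 libraries were given the same distribution by quantile normalization, 5 of the 10 starts were higher in pool 1 and the median difference fell to 0.0763. The largest difference was then 1.21, at Lipe, which had 7.35 and 8.55 on that scale.

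Every gene listed for the 5 families to which members belong had its start in A in both pools, beside 75.6% of all genes. Of the alpha/beta hydrolases, only Abhd4, Abhd5, Abhd6 and Abhd12 were listed. Among the 5 perilipin genes, Plin3, of most tissues, had a mean of 6.20 and Plin5, of heart and oxidative tissue, 5.57. By the mean both lay between Plin1 (6.81) and Plin4 (5.15), but in pool 1 Plin5 (5.79) was below Plin4 (5.98). By percentile on their own chromosomes, however, Plin3 (99.3) and Plin5 (96.2) stood above Plin1 (74.2). Plin2 (4.75) had the lowest mean of the family. Among the CIDE genes, Cidec at 5.27 was above Cideb, of liver and gut (4.18), and Cidea, of brown fat (3.55). Cideb had 4.48 and 3.89 and Cidea 3.81 and 3.29, so the pools of neither overlapped those of Cidec. Among 7 patatin-like genes Pnpla2 (9.49) led Pnpla7 (8.42) and Pnpla6 (6.09), both lysophospholipases, while Pnpla1, Pnpla3, Pnpla8 and Pnpla5 had 3.77, 2.93, 2.92 and 2.01. Pnpla7 reached 9.20 in pool 1, within the range of Pnpla2. By percentile on their own chromosomes, Pnpla2 (98.7), Pnpla7 (97.7) and Pnpla6 (97.3) stood close together. Aqp7 (7.89) and Aqp3 (7.44) were far above Aqp9, the glycerol channel of liver (2.64). Abhd5 (3.05) lay between Abhd4 (3.64) and Abhd12 (2.70), and below Abhd6 (4.07), another monoacylglycerol lipase.

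The wider pathway was closer to the average gene in its median index, while its share of starts in A was above the 75.6% of all genes in each list, with no test. Of 30 genes of the hormonal control of lipolysis, 27 had starts in A in both pools, with a median index of 3.21 beside 3.26 over all genes. The highest by index were Akt2, the insulin-signaling kinase (7.24), and Gnai2, an inhibitory G protein subunit (5.15). By percentile on their own chromosomes, Gnai2 (94.7) stood above Akt2 (81.2), as did several other genes of this list. The 3 outside A were Npy1r, a receptor for neuropeptide Y (-2.99), Gnai1 (-2.11) and the phosphodiesterase Pde4d (-0.726). Of 18 other droplet proteins, 17 were in A, with a median of 3.92. Ddhd2, a lipase of neurons (6.32), and Plin3 were highest, Rab18 was near 0 (0.33), and the carboxylesterase Ces1d was in B (-2.89). Of 14 genes for the use of glycerol and fatty acids, 13 were in A, with a median of 3.62. Aqp3 (7.44) and Dgat2, an enzyme of triacylglycerol synthesis (5.86), were highest by index, and Gpd2 (0.47) and the fatty acid receptor Ffar4 (-0.452) lowest. By percentile on its own chromosome, Dgat2 (63.6) stood below several other genes of that list. Together these lists held 62 distinct genes, of which 57 were in A, with a median of 3.62.

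**Figure D5:**
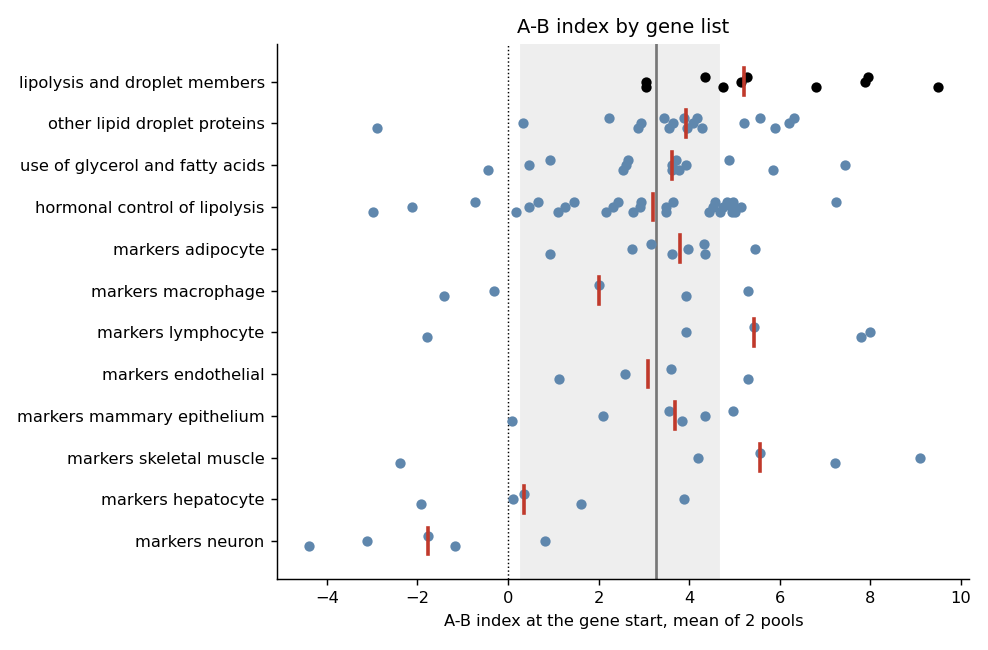
Mean A-B index of 2 pools at each gene start by gene list, with red ticks for list medians, a gray line for the median of all protein-coding genes (3.26) and shading for their middle 50%. The 10 members have a median of 5.21 and none below 3.05, while the hormonal list spans -2.99 to 7.24.

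The label of the tissue could be checked only through the index at marker genes, as RNA of these mice was not analysed here. Beside the 75.6% of all genes in A, all 8 adipocyte markers were in A (median 3.79), among them Adipoq at 2.73, Lep at 3.15 and Pparg at 3.97. Many markers of other cells that the depot can hold were in A as well: 4 of 5 of lymphocytes (median 5.44), 3 of 5 of macrophages (2.01), 4 of 4 of endothelium (3.09) and 5 of 6 of mammary epithelium (3.69). Of cell types not expected in fat in number, 4 of 5 skeletal muscle markers were in A (5.57), from Ckm at 9.11 down to Myh4, in B, at -2.38. Of the other markers of this kind, 3 of 5 of hepatocytes (0.351) and 1 of 5 of neurons (-1.78) were in A. By median percentile on their own chromosomes, muscle markers (59.7) and adipocyte markers (59.5) were close, and lymphocyte markers were higher (87.1). A place in A did not therefore separate adipocyte genes from muscle or lymphocyte genes in this map. Nuclei had been taken from the floating layer that holds adipocytes, and the share of other cells in it is not given. The part of other cell types in the values at the 10 genes was not tested.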

How the data were processed

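Hi-C libraries of 2 pools of 10 female mice were analysed, grouped by the labels of the series as 1 group. Reads had been aligned to GRCm39 with BWA 0.7.8 and filtered with Juicer 1.5.6 at a mapping quality of 30, as the methods of the study give them. The A-B index deposited by the authors is a score per 20-kb bin and library, the contact with A regions minus that with B regions, with A and B first assigned at 100 kb in R 3.6.1. The deposited TADs are positions from the merged map. The 3265 of 123133 bins with under 50% of known sequence were left out, 3200 of which held no sequence and still carried values of up to 0.487 in size.

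Genes and starts came from GENCODE M39. The outermost start stood for each gene, and a gene was called in A where both pools were above 0. GC content and promoter windows came from GRCm39. Python 3.11.15, numpy 2.4.6, pandas 2.3.3 and matplotlib 3.10.9 were used, and scripts were tested on simulated data. The members, gene lists and markers were chosen with earlier results of these data known. Genes named are the 10 members, their nearest neighbour on each side, the genes of TADs with 8 genes or fewer, listed genes of their families, and the 2 highest and 2 lowest of each list. Other genes in a member's bin, the remaining gene of the hormonal list outside A, Adra2a and Gnas were named after their values were seen. So were marker genes, Phrf1 and domain partners that share a list. Alternatives covered the window, start, scaling, tolerance and each pool left out. A start was called near a boundary within 40 kb, the distance the study used to match boundaries between species. Since there was 1 group, no test was made.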

Additional observations from a re-analysis of the deposited data

How the results depend on the processing

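All 10 starts stayed in A with the gene body, with 100 kb around the start, with either pool alone, and with a threshold of 1.32 in place of 0, which 67.2% of all genes also passed. The median index was 5.19 to 5.31 with quantile normalization, wider windows, the gene body or the canonical start (the last added after seeing the data), and 4.59 to 5.85 with 1 pool left out. The median percentile was 81.2 on the same chromosome, 83.7 by z score, 95.1 among all bins, and 78.0 to 86.8 with 1 pool left out. Members near a TAD boundary rose from 1 to 3 at 100 kb (38.7% of all genes). The median share of A bins was 100% within 250 kb (all genes 100%), 85.1% within 1 Mb (71.3%), and 98.0% to 99.0% with 1 pool left out. The median difference from the flanks was 0.927 with 500 kb flanks (all genes 0.473), and 0.679 to 0.912 with 1 pool left out. Single members moved by more than 1 SD in 3 of 10 cases at 60 kb, 3 of 10 at 100 kb, and 2 of 10 with the gene body, and none changed sign. The cause of these moves was not tested. No paired analysis was possible because the results come from no test and the pools form 1 group. The 20-kb bin limits resolution where starts share a bin, and the depth was not examined.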
